A study of Mus musculus with 16 samples.

Results

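Microglia are the resident macrophages of the brain, and 10 of their genes were followed in RNA of synaptosomes, the pinched-off synaptic endings prepared from mouse cerebral cortex. The genes were C1qa, C1qb, C1qc, Ctss, Itgam, Csf1r, Cx3cr1, P2ry12, Trem2 and Tyrobp, chosen by symbol from a count table of 48709 genes. The symbol Itgam stood on 2 rows of the table; the row of ENSMUSG00000030786 was used, since the other held 3 counts over the 16 libraries. All libraries came from C57BL/6 mice, with no transgene or treatment named. They comprised synaptosomes (SYN) of mice aged 3 weeks, 5 months and 19 months, and total homogenate (TH), the cortex lysate kept before synaptosome enrichment, of mice aged 5 months, with 4 libraries in each of these 4 groups. The study design calls the libraries of an age biological replicates; the sources used here do not give the sex of the mice or whether a library pooled animals. Synaptosome preparations are enriched fractions and can hold fragments of glial processes, so the RNA measured in them was not sorted by cell type. Homogenate was sampled at 5 months only, so an age difference in SYN has no homogenate counterpart here.

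C1q is the recognition molecule of the classical complement pathway. It is assembled from A, B and C chains made by C1qa, C1qb and C1qc, and in the brain microglia are its main source. In mice, C1q and the downstream complement proteins mark synapses in development, and microglia take up such synapses through the receptor whose alpha chain Itgam encodes. Csf1r, Cx3cr1 and P2ry12 are surface receptors for survival factors, for the neuronal chemokine fractalkine and for ADP released by cells. Trem2 is a lipid-sensing receptor that signals through the adaptor Tyrobp, and Ctss encodes the lysosomal protease cathepsin S.

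Libraries held 10.6 to 21.7 M counts (M, mega), and 6.56 to 14.6 M counts outside the mitochondrial genome. The 10 genes together took 1625 to 4231 counts per library, and the lowest single count was 25, for Trem2 in a TH library. Libraries stood apart in 2 cases. The library of 5 months SYN replicate 4 had 4817 CPM (counts per M counts of the library, after TMM scaling of library sizes) of the nuclear RNA Malat1, while the remaining libraries of that group had 947 to 1458 CPM. The library of 19 months SYN replicate 1 had 52.3% of its counts in mitochondrial rRNA, against 32.9% to 33.6% in the other 19 months libraries. It was also the highest of its group for all 10 microglial genes, for 22 of 35 other microglial markers and for all 8 nuclear RNAs. Results for the 10 genes that rest on this library are given with and without it. Fold changes and calls of all other genes, and ratios or shares between genes, are given only with it. The libraries of 3 weeks SYN replicate 1, 5 months SYN replicate 4 and 19 months SYN replicate 4 were each the lowest of their group for 8 of the 10 genes. Among the 35 other microglial markers they were lowest for 22, 10 and 21, in that order. Mitochondrial rRNA took 51.7% of counts in 3 weeks SYN replicate 1, against 42.6% to 48.6% in the other 3 weeks libraries. The label of the fraction held against markers: 13 of 16 dendritic and synaptic RNAs were higher in SYN than in TH, while all 8 nuclear RNAs and 13 of 15 endothelial and mural markers were lower.

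At 5 months, all 10 microglial genes were higher in SYN than in TH, by 1.79-fold to 4.13-fold, and no SYN library overlapped a TH library for any of them. The count was also 10 without 5 months SYN replicate 4. Each was called at an adjusted p below 0.05 by edgeR's quasi-likelihood test, a rule that called 24.5% of the 17374 tested genes higher and 25.6% lower. Groups that did not overlap, with SYN higher, were found for 22.2% of all tested genes. The median log2 fold change of the 10 genes was 1.38, against -0.05 over all tested genes. The 10 genes summed to 192 to 236 CPM in SYN libraries and to 87.4 to 92.4 CPM in TH libraries. Mitochondrial rRNA took 39.3 ± 4.24% of counts in 5 months SYN and 19.2 ± 1.91% in TH (SD, n = 4 each). With the mitochondrial genome removed before scaling, all 10 genes were still called higher in SYN. In bulk RNA, a different amount of microglial material and a different amount of RNA per cell cannot be told apart.

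The C1q chains were all higher in SYN. C1qa had 17.3, 18.5, 15.8 and 12.7 CPM in the SYN libraries, against 5.57, 5.04, 6.26 and 4.71 CPM in the TH libraries. C1qb had 19.8, 24.3, 17.1 and 15.6 CPM in SYN, against 9.44, 7.27, 8.60 and 5.34 CPM in TH. C1qc had 14.4, 18.4, 21.9 and 12.2 CPM in SYN, against 5.73, 6.19, 7.41 and 7.20 CPM in TH. The lowest SYN library lay above the highest TH library for each chain. The log2 fold changes were 1.59 for C1qa (SE 0.163, edgeR adjusted p = 1.49e-06), 1.34 for C1qb (SE 0.188, edgeR adjusted p = 3.40e-05) and 1.34 for C1qc (SE 0.183, edgeR adjusted p = 2.72e-05). Summed over the chains, C1q averaged 52.0 ± 8.65 CPM in SYN and 19.7 ± 2.24 CPM in TH (SD, n = 4 each).

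The C1q genes lie side by side on the minus strand of chromosome 4 (GRCm38), with C1qb at chr4:136880129-136886187, C1qc at chr4:136889804-136893065 and C1qa at chr4:136895917-136898803. The positions are those of the count table, and RefSeq start sites can differ from them: the RefSeq start of C1qc lies inside the gene as positioned here, so its window overlaps the gene. RefSeq windows for GRCm38.p6 were matched for 7 of the 10 genes, C1qa, Csf1r and Tyrobp having no entry. The 250 bases before the RefSeq start were searched on both strands for GAGGAA, a core sequence bound by PU.1, the transcription factor that myeloid cells and microglia depend on. GAGGAA or its reverse complement TTCCTC was in 5 of the 7 windows (Ctss, C1qb, C1qc, Itgam and Trem2) and in 23.3% of 32851 windows of the same length. The longer GAGGAAGT, which contains GAGGAA, was in 1 of the 7 windows (C1qc) and in 2.44% of all windows. TATAAA, the TATA box letters, was in 1 of the 7 windows and in 12.4% of all windows. A match is a description of these letters and not a bound site. The windows of C1qb, C1qc and Itgam are shown because these genes encode chains of C1q and the alpha chain of a microglial complement receptor. The windows of P2ry12 and Cx3cr1, which are not shown, held neither GAGGAA nor TTCCTC. Each is written 5′ to 3′ on the gene's strand, and capitals mark GAGGAA or TTCCTC. C1qb is at chr4:136886201-136886450 on the minus strand, C1qc at chr4:136892915-136893164 on the minus strand and Itgam at chr7:128062390-128062639 on the plus strand.
C1qb: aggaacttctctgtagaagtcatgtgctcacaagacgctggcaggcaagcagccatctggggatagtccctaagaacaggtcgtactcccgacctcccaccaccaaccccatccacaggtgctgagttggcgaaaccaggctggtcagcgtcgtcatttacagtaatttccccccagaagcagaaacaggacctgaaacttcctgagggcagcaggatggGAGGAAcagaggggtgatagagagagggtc
C1qc: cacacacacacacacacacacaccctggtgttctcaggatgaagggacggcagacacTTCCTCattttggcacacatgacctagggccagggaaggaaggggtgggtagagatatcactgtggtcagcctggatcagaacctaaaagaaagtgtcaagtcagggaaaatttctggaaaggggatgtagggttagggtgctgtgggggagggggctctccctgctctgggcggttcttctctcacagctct
Itgam: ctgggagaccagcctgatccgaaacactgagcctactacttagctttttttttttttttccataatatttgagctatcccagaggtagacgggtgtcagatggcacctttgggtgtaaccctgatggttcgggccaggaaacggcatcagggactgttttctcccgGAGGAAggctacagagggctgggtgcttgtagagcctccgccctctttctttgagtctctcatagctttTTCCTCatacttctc

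Itgam, the integrin alpha chain also known as CD11b, had 15.6, 14.2, 14.8 and 12.8 CPM in SYN, against 2.89, 3.42, 4.11 and 4.45 CPM in TH. Its log2 fold change of 1.95 (SE 0.172, edgeR adjusted p = 3.19e-07) exceeded that of 99.2% of all tested genes. Tyrobp, the adaptor of Trem2, had 5.18, 8.45, 10.7 and 7.11 CPM in SYN, against 1.86, 2.05, 2.07 and 1.66 CPM in TH. Its log2 fold change of 2.05 (SE 0.252, edgeR adjusted p = 9.60e-06) was the largest of the 10 genes. Trem2 itself had 7.06, 6.73, 6.20 and 3.88 CPM in SYN, against 1.36, 2.41, 2.46 and 1.76 CPM in TH. Its log2 fold change was 1.57 (SE 0.281, edgeR adjusted p = 0.000301), with the widest error of the 10 genes. The low SYN value of Trem2 came from replicate 4, and that library still lay above all TH libraries.

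Ctss had 54.2, 57.0, 66.0 and 49.5 CPM in SYN, against 21.1, 20.7, 21.7 and 21.2 CPM in TH. Its log2 fold change was 1.43 (SE 0.0985, edgeR adjusted p = 2.55e-08). TH libraries were almost level for this gene, with an SD of 0.446 CPM around 21.2 CPM (n = 4).

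The surface receptors had the smallest fold changes of the 10 genes. Csf1r had 33.2, 32.5, 32.5 and 30.7 CPM in SYN, against 17.7, 19.2, 17.1 and 18.4 CPM in TH. P2ry12 had 15.4, 19.3, 15.5 and 14.6 CPM in SYN, against 8.02, 10.1, 7.68 and 9.59 CPM in TH. Cx3cr1 had 28.2, 36.6, 29.4 and 32.8 CPM in SYN, against 15.1, 13.8, 15.0 and 13.05 CPM in TH. None of these receptors overlapped between the fractions. The log2 fold changes were 0.84 for Csf1r (SE 0.0957, edgeR adjusted p = 4.13e-06), 0.88 for P2ry12 (SE 0.147, edgeR adjusted p = 0.000172) and 1.17 for Cx3cr1 (SE 0.115, edgeR adjusted p = 9.63e-07). Csf1r and Tyrobp had the smallest and the largest fold change of the 10 genes. The 95% interval of Csf1r ran up to 1.05 and that of Tyrobp began at 1.51, so those intervals did not meet. The interval of Cx3cr1, 0.93 to 1.42, met those of the C1q chains, Ctss and Trem2 but not those of Itgam and Tyrobp.

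**Figure D1:**
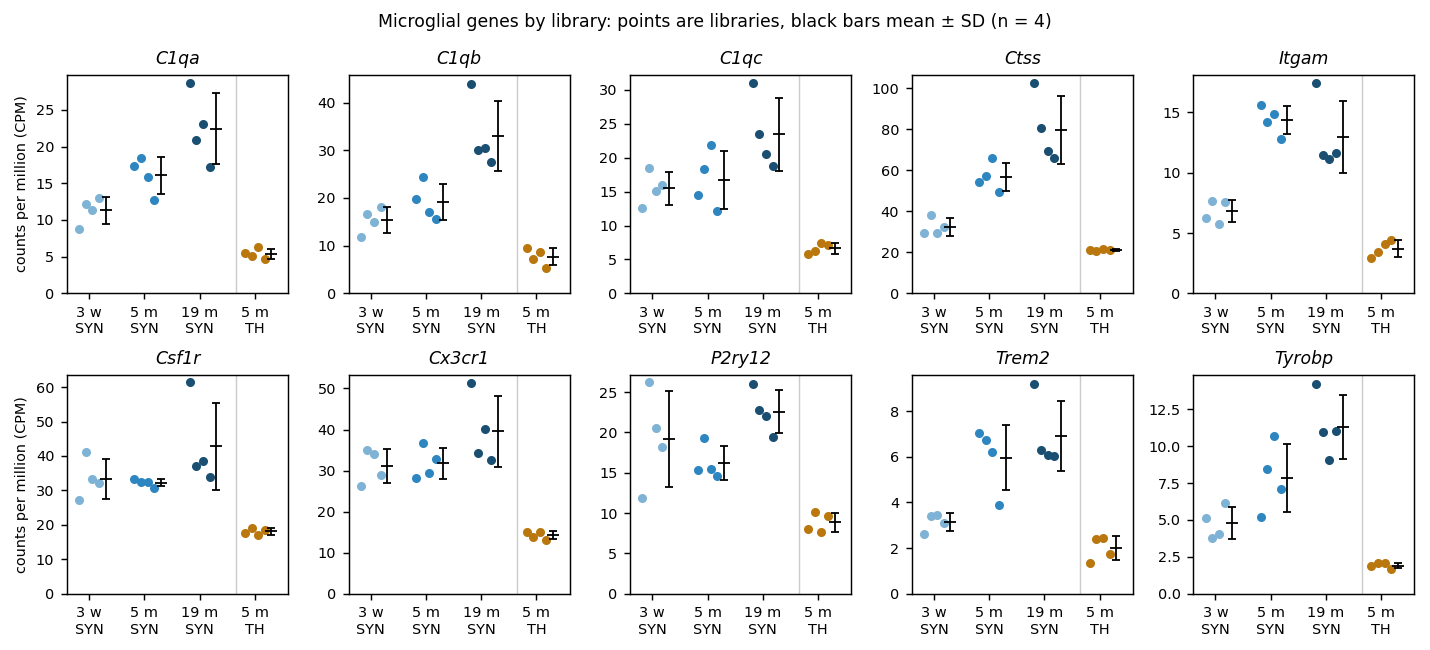
Level of each of the 10 microglial genes in CPM (vertical axes, from 0) for synaptosomes at 3 weeks, 5 months and 19 months and for total homogenate at 5 months (SYN and TH; w, weeks; m, months). Points are libraries and black bars are the mean ± SD (n = 4); every 5 months SYN point lies above every TH point, and the highest 19 months point is replicate 1 in all 10 panels.

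Levels were compared between genes only per kilobase of exon. In 5 months SYN, Ctss led with 41.7 ± 5.10 CPM per kilobase, followed by C1qb with 17.6 ± 3.51, C1qa with 15.5 ± 2.39 and Tyrobp with 11.8 ± 3.47 CPM per kilobase (SD, n = 4). The intervals of mean ± SD met for C1qb and C1qa, and for C1qa and Tyrobp. C1qc followed with 8.67 ± 2.23 and Cx3cr1 with 8.49 ± 1.01 CPM per kilobase, then Csf1r with 6.60 ± 0.217 and P2ry12 with 6.36 ± 0.828 CPM per kilobase. Within each of these pairs, too, the intervals of mean ± SD met. Itgam with 2.86 ± 0.238 and Trem2 with 1.21 ± 0.290 CPM per kilobase came last. The order depends on the exon length used. With the length of the principal transcript in GENCODE vM21, 1088 bases in place of 4946 bases, Trem2 stood at 5.49 ± 1.32 CPM per kilobase, above Itgam at 3.09 ± 0.258 CPM per kilobase with its own principal transcript, and C1qc, with 1203 in place of 1931 bases, at 13.9 ± 3.58 CPM per kilobase. The per-length level of Itgam is uncertain, because 68.7% of its exon bases also belong to the other row with this symbol.

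Other microglial markers were also higher in SYN than in TH, in 24 of 35 tested genes, with 1 lower and a median log2 fold change of 0.77. Siglech, a microglial lectin, averaged 18.1 CPM in SYN and 7.14 CPM in TH, a log2 fold change of 1.35 (edgeR adjusted p = 6.53e-07). Rgs10, a regulator of G protein signalling, averaged 34.9 CPM in SYN and 13.6 CPM in TH, a log2 fold change of 1.37 (edgeR adjusted p = 7.33e-07). The protease gene Lgmn and Plxdc2 were higher by 0.89 and 0.75 on the log2 scale. Of 20 tested genes of activated microglia, 11 were higher and none lower; Apoe, a lipid carrier made by astrocytes too, averaged 2313 CPM in SYN and 779 CPM in TH, a log2 fold change of 1.58 (edgeR adjusted p = 6.51e-09). Fth1, Ctsb and Axl were higher by 1.07, 0.73 and 0.92 on the log2 scale, Fth1 being uncertain since processed copies of it occur in the genome.

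Markers of other cells did not move alike. Of the astrocyte markers, 15 of 16 were higher in SYN, with a median log2 fold change of 1.07, and their summed level was 8079 to 9287 CPM in SYN and 3585 to 4107 CPM in TH. Among them, Gfap averaged 251 CPM in SYN and 62.3 CPM in TH. Of the endothelial and mural markers, 13 of 15 were lower in SYN, with a median of -3.07, and none was higher. Border macrophage markers summed to 16.5 to 25.7 CPM in SYN and to 16.1 to 35.9 CPM in TH, and none of the 6 tested was called. Of their defining genes, Mrc1 had a log2 fold change of 0.39 (edgeR adjusted p = 0.284). This was the highest of the 6 tested genes, whose median log2 fold change was -0.23. Blood leukocyte markers summed to at most 0.598 CPM in SYN and 1.11 CPM in TH, with 8 of 14 at 0 in all 5 months SYN libraries, Cd3g, Ly6g and Ms4a1 among them, and none was abundant enough to test. Of the oligodendrocyte markers, 6 of 14 were higher and 1 was lower. The part of astrocyte material in the SYN values was not tested.

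The ligands and partners of the 10 genes did not all follow them. Of 17 tested genes of this kind, 6 were higher in SYN and none was lower. Cx3cl1, the neuronal ligand of Cx3cr1, averaged 298 CPM in SYN and 145 CPM in TH, a log2 fold change of 1.04 (edgeR adjusted p = 3.10e-07). The ligands of Csf1r did not pass the test: Csf1 averaged 10.8 CPM in SYN and 10.3 CPM in TH, a log2 fold change of 0.08 (95% interval -0.25 to 0.42, edgeR adjusted p = 0.684). Il34 averaged 7.41 CPM in SYN and 6.80 CPM in TH, a log2 fold change of 0.13 (95% interval -0.23 to 0.49, edgeR adjusted p = 0.538). Itgb2, the beta chain that pairs with Itgam, averaged 5.92 CPM in SYN and 2.69 CPM in TH, a log2 fold change of 1.14 (edgeR adjusted p = 0.000533). The kinase Lyn was higher by 0.60 (edgeR adjusted p = 0.0193). Syk, the kinase downstream of Tyrobp, had a log2 fold change of 0.53 that missed the threshold (edgeR adjusted p = 0.123).

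The complement list, which includes Itgam, split: 10 of 27 tested genes were higher in SYN, 4 were lower and the median log2 fold change was -0.06. Calr, a chaperone that also binds C1q, was higher by 1.36 (edgeR adjusted p = 1.58e-08), and Clu, a complement inhibitor of astrocytes, by 1.203 (edgeR adjusted p = 1.36e-07). Lrp1 was higher by 0.89 and Susd4, a complement regulator, by 0.95. The 4 genes called lower, named after their values were seen, were Cfp, Cd46, Cr1l and Csmd3. Cfp, which encodes properdin, averaged 0.620 CPM in SYN against 3.93 CPM in TH, and Cd46 1.02 CPM in SYN against 4.68 CPM in TH. Cr1l averaged 7.34 CPM in SYN against 14.7 CPM in TH, and Csmd3 35.9 CPM in SYN against 58.7 CPM in TH. The components that act after C1q did not pass the test. C4b averaged 24.1 CPM in SYN and 20.4 CPM in TH, a log2 fold change of 0.25 (edgeR adjusted p = 0.0912), and is uncertain because reads can match its near-identical copy C4a. C3 was scarce, averaging 0.397 CPM in SYN and 1.04 CPM in TH, a log2 fold change of -1.37 (edgeR adjusted p = 0.110). Sirpa, a receptor that restrains phagocytosis and is also neuronal, was higher by 0.90 (edgeR adjusted p = 1.05e-06).

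**Figure D2:**
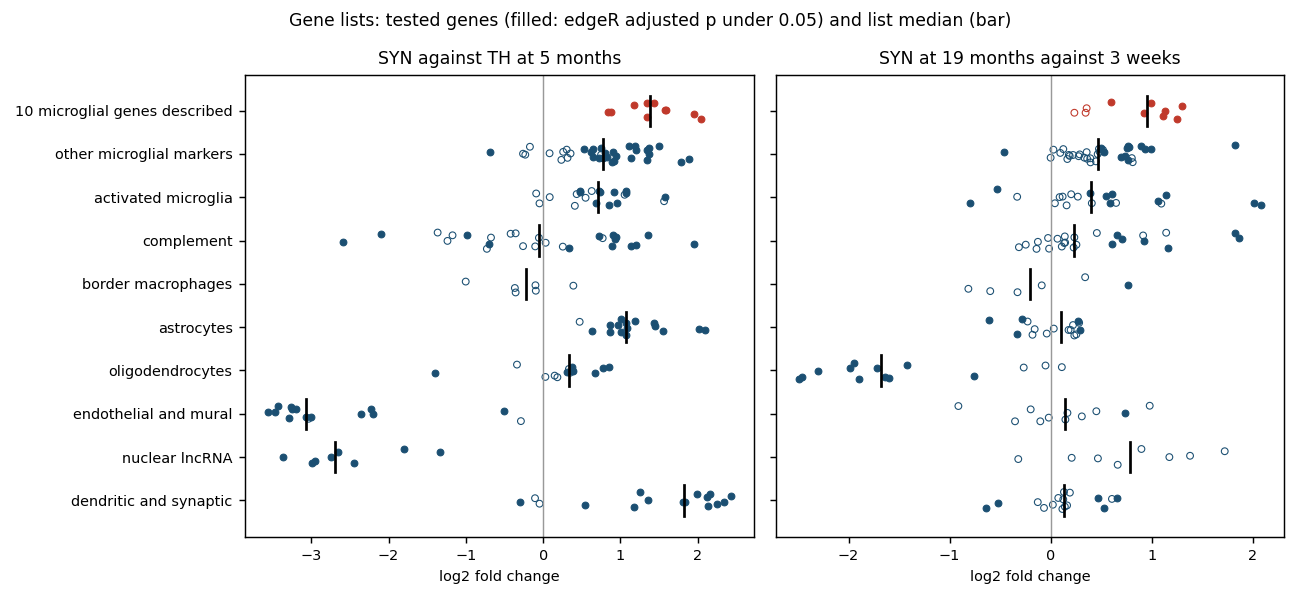
Log2 fold changes (horizontal axes) of the tested genes in 10 lists, for SYN against TH at 5 months (left) and SYN at 19 months against 3 weeks (right). Circles are genes, filled where the edgeR adjusted p was below 0.05, and black bars are list medians; for SYN against TH the 10 microglial genes (red) have a median of 1.38, astrocyte markers 1.07 and endothelial and mural markers -3.07.

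Between 3 weeks and 5 months, 5 of the 10 genes rose in SYN (Ctss, Itgam, Trem2, Tyrobp and C1qa) and none fell. The same test called 13.3% of 15344 genes higher and 11.3% lower. The groups did not overlap for Ctss, Itgam and Trem2, and for 10.6% of all tested genes with 5 months higher. The median log2 fold change of the 10 genes was 0.43. Without 5 months SYN replicate 4 and 19 months SYN replicate 1, which stood apart, the count was 6, C1qb being added.

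Ctss had 54.2, 57.0, 66.0 and 49.5 CPM at 5 months, against 29.3, 38.4, 29.3 and 32.5 CPM at 3 weeks. Its log2 fold change was 0.82 (SE 0.127, edgeR adjusted p = 3.00e-05). Itgam had 15.6, 14.2, 14.8 and 12.8 CPM at 5 months, against 6.28, 7.65, 5.79 and 7.53 CPM at 3 weeks. With a log2 fold change of 1.09 (SE 0.171, edgeR adjusted p = 3.05e-05), Itgam moved the most of the 10 genes. Trem2 had 7.06, 6.73, 6.20 and 3.88 CPM at 5 months, against 2.61, 3.40, 3.46 and 3.10 CPM at 3 weeks, a log2 fold change of 0.93 (SE 0.235, edgeR adjusted p = 0.00461). Its lowest 5 months library lay just above its highest 3 weeks library.

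Tyrobp and C1qa rose with overlapping groups. Tyrobp had 5.18, 8.45, 10.7 and 7.11 CPM at 5 months, against 5.14, 3.79, 4.03 and 6.12 CPM at 3 weeks, a log2 fold change of 0.74 (SE 0.220, edgeR adjusted p = 0.0146). C1qa had 17.3, 18.5, 15.8 and 12.7 CPM at 5 months, against 8.73, 12.2, 11.4 and 12.95 CPM at 3 weeks, a log2 fold change of 0.52 (SE 0.164, edgeR adjusted p = 0.0212). Both calls were lost in several of the analyses that left out a library, in which the log2 fold change ran from 0.42 to 0.62 for C1qa and from 0.56 to 0.90 for Tyrobp. C1qa was not called without 3 weeks replicate 1 (0.0607), without 3 weeks replicate 3 (0.0506), without 5 months replicate 1 (0.0532) or without 5 months replicate 2 (0.0720), each value being an edgeR adjusted p. Tyrobp was not called without 3 weeks replicate 2 (0.0591), without 3 weeks replicate 3 (0.0599) or without 5 months replicate 3 (0.0795), again as edgeR adjusted p values. As a result, 3 of the 10 genes were called without 3 weeks replicate 3.

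The other C1q chains and the receptors did not pass the test between 3 weeks and 5 months. C1qb averaged 19.2 ± 3.81 CPM at 5 months and 15.3 ± 2.72 CPM at 3 weeks (SD, n = 4 each; log2 fold change 0.34, 95% interval 0.01 to 0.67, edgeR adjusted p = 0.131). C1qc averaged 16.7 ± 4.31 CPM at 5 months and 15.5 ± 2.43 CPM at 3 weeks, a log2 fold change of 0.12 (95% interval -0.24 to 0.48, edgeR adjusted p = 0.673). For Csf1r the difference was -0.04 on the log2 scale (95% interval -0.34 to 0.26), for Cx3cr1 0.04 (95% interval -0.23 to 0.32) and for P2ry12 -0.23 (95% interval -0.58 to 0.12). The edgeR adjusted p values were 0.883, 0.852 and 0.343 in that order. P2ry12 varied widely at 3 weeks, with 11.8, 26.2, 20.5 and 18.2 CPM, and was called lower without the lowest of these, replicate 1 (log2 fold change -0.40, edgeR adjusted p = 0.0450).

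Between 5 and 19 months, C1qb was the gene called among the 10. It had 43.9, 30.0, 30.4 and 27.5 CPM at 19 months, against 19.8, 24.3, 17.1 and 15.6 CPM at 5 months. The log2 fold change was 0.77 (SE 0.158, edgeR adjusted p = 0.0279), and the groups did not overlap. The test called 0.13% of 15344 genes higher in this comparison, which is 20 genes, and 0.169% lower. The call was lost in 7 of the 8 analyses that left out a library, with edgeR adjusted p of 0.0506 to 0.1004, and was kept without 5 months SYN replicate 2. Without 5 months SYN replicate 4 and 19 months SYN replicate 1 the log2 fold change of C1qb was 0.52 (edgeR adjusted p = 0.220), and none of the 10 genes was called.

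The remaining genes did not pass the test between 5 and 19 months, and 8 of these 9 had positive log2 fold changes. Ctss had 102.5, 80.8, 69.3 and 65.8 CPM at 19 months, against 54.2, 57.0, 66.0 and 49.5 CPM at 5 months, a log2 fold change of 0.48 (SE 0.124, edgeR adjusted p = 0.0798). C1qa and C1qc had log2 fold changes of 0.47 (edgeR adjusted p = 0.166) and 0.48 (edgeR adjusted p = 0.199). Csf1r and P2ry12 did not overlap between these ages either, which held for 3.53% of all tested genes with 19 months higher. Their log2 fold changes were 0.40 (edgeR adjusted p = 0.223) and 0.47 (edgeR adjusted p = 0.207). Cx3cr1 had 0.30, Tyrobp 0.52 and Trem2 0.21 (edgeR adjusted p = 0.308, 0.269 and 0.739 in that order). Itgam was the exception in sign, with 17.4, 11.5, 11.2 and 11.7 CPM at 19 months, against 15.6, 14.2, 14.8 and 12.8 CPM at 5 months, a log2 fold change of -0.16 (95% interval -0.50 to 0.18, edgeR adjusted p = 0.719). Apart from replicate 1, every 19 months library lay below every 5 months library for Itgam. Without 19 months SYN replicate 1, the log2 fold changes were 0.34 for Ctss, 0.34 for C1qa, 0.33 for C1qc, 0.40 for P2ry12 and 0.39 for Tyrobp. They were 0.17 for Csf1r, 0.15 for Cx3cr1, 0.044 for Trem2 and -0.33 for Itgam, and none of the 10 genes was called.

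Between 3 weeks and 19 months, 7 of the 10 genes rose and none fell. Called higher were 10% of 15344 genes and called lower 9.44%. The groups did not overlap for any of these 7 genes, and for 11.1% of all tested genes with 19 months higher. The median log2 fold change of the 10 genes was 0.96. Without 19 months SYN replicate 1 the count was 6, and the log2 fold changes of those 6 genes ran from 0.76 for Itgam to 1.16 for Ctss. This comparison shares its libraries with the age comparisons above and is not independent of them.

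All C1q chains were among the genes that rose. C1qb had 43.9, 30.0, 30.4 and 27.5 CPM at 19 months, against 11.7, 16.5, 14.9 and 18.1 CPM at 3 weeks, a log2 fold change of 1.11 (SE 0.160, edgeR adjusted p = 1.40e-05). C1qa had 28.6, 20.9, 23.1 and 17.2 CPM at 19 months, against 8.73, 12.2, 11.4 and 12.95 CPM at 3 weeks, a log2 fold change of 0.99 (SE 0.163, edgeR adjusted p = 7.18e-05). C1qc had 31.0, 23.6, 20.6 and 18.8 CPM at 19 months, against 12.6, 18.4, 15.1 and 15.98 CPM at 3 weeks, a log2 fold change of 0.60 (SE 0.174, edgeR adjusted p = 0.0149). The call of C1qc was lost without 19 months SYN replicate 1 (log2 fold change 0.45, edgeR adjusted p = 0.0788). The share of C1q counts that were C1qb was 36.3 ± 1.51% at 3 weeks, 36.9 ± 3.88% at 5 months and 41.8 ± 1.36% at 19 months (SD, n = 4 each). Every 19 months library, at 40.3% to 43.4%, lay above every younger SYN library for this share. TH libraries ranged from 31.0% to 45.5%.

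Ctss rose the most between 3 weeks and 19 months, with a log2 fold change of 1.303 (SE 0.127, edgeR adjusted p = 3.77e-08). Tyrobp had 14.2, 10.95, 9.04 and 11.02 CPM at 19 months, against 5.14, 3.79, 4.03 and 6.12 CPM at 3 weeks, a log2 fold change of 1.26 (SE 0.219, edgeR adjusted p = 0.000145). Trem2 had 9.21, 6.31, 6.09 and 6.06 CPM at 19 months, against 2.61, 3.40, 3.46 and 3.10 CPM at 3 weeks, a log2 fold change of 1.13 (SE 0.235, edgeR adjusted p = 0.000911). Itgam had a log2 fold change of 0.93 (SE 0.172, edgeR adjusted p = 0.000287).

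The surface receptors did not pass the test. Csf1r had 61.3, 37.2, 38.5 and 33.9 CPM at 19 months, against 27.2, 41.2, 33.3 and 32.0 CPM at 3 weeks, a log2 fold change of 0.36 (95% interval 0.05 to 0.66, edgeR adjusted p = 0.0914). Cx3cr1 had 51.4, 34.2, 40.1 and 32.5 CPM at 19 months, against 26.3, 35.04, 34.1 and 29.0 CPM at 3 weeks, a log2 fold change of 0.35 (95% interval 0.07 to 0.62, edgeR adjusted p = 0.0667). P2ry12 had 26.0, 22.8, 22.0 and 19.5 CPM at 19 months, against 11.8, 26.2, 20.5 and 18.2 CPM at 3 weeks, a log2 fold change of 0.24 (95% interval -0.11 to 0.58, edgeR adjusted p = 0.363). Groups overlapped for each receptor. Without 19 months SYN replicate 1 the log2 fold changes were 0.14 for Csf1r, 0.20 for Cx3cr1 and 0.17 for P2ry12. Csf1r was called higher without 3 weeks replicate 2 (edgeR adjusted p = 0.0311) and, with Cx3cr1, without 19 months replicate 4 (edgeR adjusted p = 0.0474 and 0.0419). With all libraries kept and no filter on low counts, Csf1r and Cx3cr1 were also called higher.

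**Figure D3:**
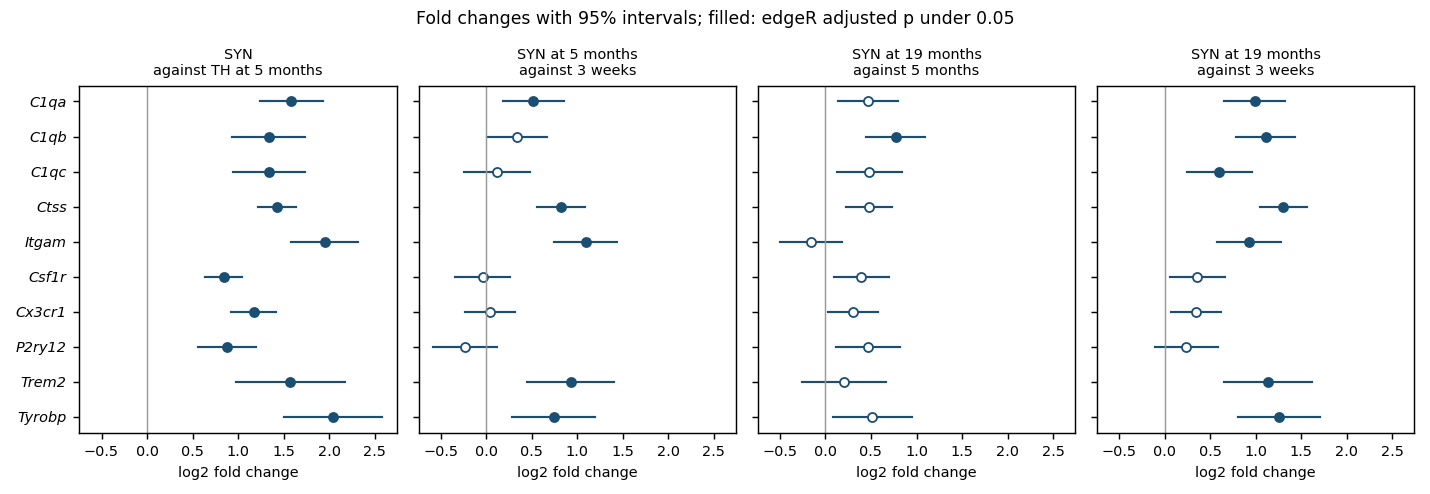
Log2 fold changes (horizontal axes, shared scale) with 95% intervals for the 10 genes in 4 comparisons; filled circles have an edgeR adjusted p below 0.05. All 10 circles are filled for SYN against TH, 5 for 5 months against 3 weeks, 1 for 19 against 5 months (C1qb) and 7 for 19 months against 3 weeks, where Csf1r, Cx3cr1 and P2ry12 are open.

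Set against the mean log2 CPM of Csf1r, Cx3cr1 and P2ry12 in the same library, the other genes followed different courses. These ratios were chosen with the levels known and are given without a test. The mean log2 CPM of the C1q chains stood at -0.95 ± 0.18 relative to the receptors at 3 weeks, -0.58 ± 0.20 at 5 months and -0.38 ± 0.05 at 19 months in SYN, and at -1.03 ± 0.21 in TH (SD, n = 4 each). Every 19 months library was above every other SYN or TH library for this ratio. Ctss stood at 0.27 ± 0.21 at 3 weeks, 1.15 ± 0.20 at 5 months and 1.24 ± 0.12 at 19 months in SYN, and at 0.69 ± 0.09 in TH. Its 5 months and 19 months ratios overlapped, and both lay above the other groups. Itgam stood at -1.98 ± 0.29 at 3 weeks, -0.83 ± 0.17 at 5 months and -1.38 ± 0.12 at 19 months in SYN, and at -1.84 ± 0.29 in TH. All 5 months SYN libraries were above all other libraries for Itgam, and the 3 ages did not overlap. Trem2 stood at -3.09 ± 0.15, -2.13 ± 0.37 and -2.28 ± 0.09 at the successive ages in SYN, and at -2.76 ± 0.40 in TH.

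**Figure D4:**
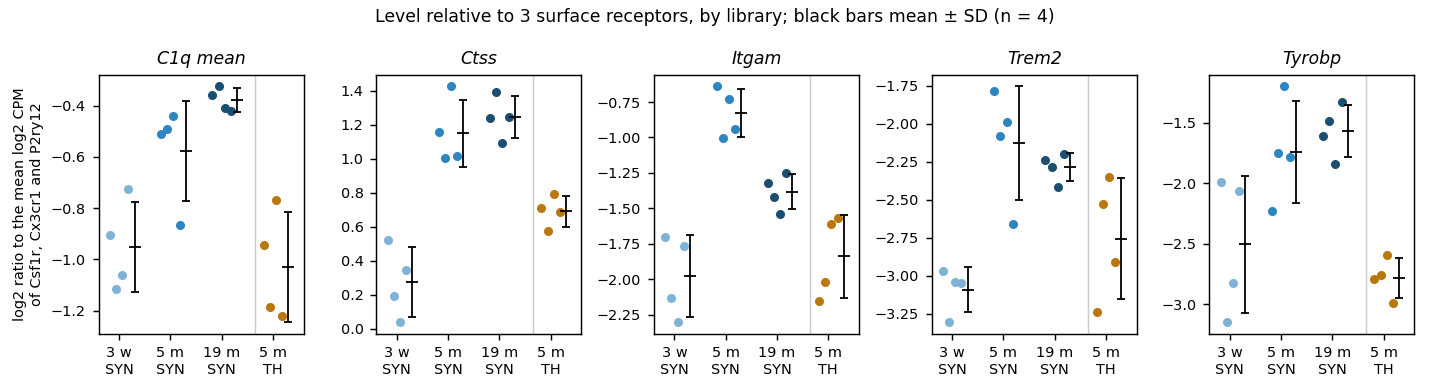
Log2 ratio of the C1q mean, Ctss, Itgam, Trem2 and Tyrobp to the mean log2 CPM of Csf1r, Cx3cr1 and P2ry12 in the same library (vertical axes), by group. Points are libraries and black bars are the mean ± SD (n = 4); the C1q mean stands at -0.95, -0.58 and -0.38 at the 3 successive ages, and Itgam is highest in 5 months SYN at -0.83.

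In SYN, the ratio of Itgam to its partner chain Itgb2 was lower at 19 months than at the younger ages. This ratio is given without a test. Itgb2 averaged 2.37 CPM at 3 weeks, 5.92 CPM at 5 months and 8.38 CPM (5.51 to 11.2) at 19 months in SYN. It rose between 3 weeks and 5 months by 1.33 (edgeR adjusted p = 0.000133) and between 3 weeks and 19 months by 1.82 on the log2 scale (edgeR adjusted p = 2.10e-06). Neither Itgb2 nor Itgam was called between 5 and 19 months. The log2 ratio of Itgam to Itgb2 was 1.52 ± 0.16 at 3 weeks, 1.28 ± 0.11 at 5 months and 0.65 ± 0.31 at 19 months in SYN, and 0.45 ± 0.25 in TH (SD, n = 4 each). The 19 months libraries, at 0.40 to 1.08, lay below every younger SYN library.

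Among the 35 other microglial markers, 4 rose and 1 fell between 3 weeks and 5 months, 1 rose between 5 and 19 months, and 12 rose and 1 fell between 3 weeks and 19 months. The list medians were 0.15, 0.36 and 0.47 on the log2 scale. Over all tested genes, 13.3% were called higher and 11.3% lower between 3 weeks and 5 months, 0.13% and 0.169% between 5 and 19 months, and 10% and 9.44% between 3 weeks and 19 months. Siglech rose between 3 weeks and 5 months (log2 fold change 0.57, edgeR adjusted p = 0.00402), and Ptprc, the pan-leukocyte phosphatase CD45, rose by 1.06 (edgeR adjusted p = 0.0110). Lgmn fell, averaging 54.6 CPM at 5 months and 84.6 CPM at 3 weeks, a log2 fold change of -0.62 (edgeR adjusted p = 0.000298). Rgs10 was the marker called between 5 and 19 months, averaging 55.3 CPM at 19 months and 34.9 CPM at 5 months, a log2 fold change of 0.66 (edgeR adjusted p = 0.0222).

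Genes of activated microglia were called in both directions with age, in shares near those of all genes between 3 weeks and 5 months and, for the genes that fell, between 3 weeks and 19 months: 3 of 20 rose and 2 fell between 3 weeks and 5 months, none was called between 5 and 19 months, and 8 rose and 2 fell between 3 weeks and 19 months. Lyz2, a lysozyme of myeloid cells that shares sequence with Lyz1, averaged 8.35 CPM at 19 months and 2.06 CPM at 3 weeks, a log2 fold change of 2.01 (edgeR adjusted p = 4.38e-07). Gpnmb averaged 3.63 CPM at 19 months and 0.842 CPM at 3 weeks, a log2 fold change of 2.09 (edgeR adjusted p = 0.00137). Spp1 and B2m rose over the same span by 1.14 and 0.61. Ctsl and Cd9 fell between 3 weeks and 5 months, by 0.82 and 1.29 on the log2 scale. The cells that the RNAs of this list came from cannot be told apart in bulk RNA.

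Of the complement list, 7 of 24 tested genes rose and none fell between 3 weeks and 5 months, and the counts were again 7 and none between 3 weeks and 19 months. C4b, which acts directly after C1q, averaged 24.1 CPM at 5 months and 7.34 CPM at 3 weeks, a log2 fold change of 1.74 (edgeR adjusted p = 2.28e-09). It averaged 26.4 CPM at 19 months, a log2 fold change of 0.12 over 5 months (edgeR adjusted p = 0.752). C1ra, the protease that C1q activates and that has a near-identical copy, rose by 1.87 between 3 weeks and 5 months (edgeR adjusted p = 0.00832), and the inhibitor Cd59a by 1.16 (edgeR adjusted p = 0.00927). Cr1l, a complement regulator, rose between 3 weeks and 19 months by 0.70 on the log2 scale. C3 did not pass the test at any age, with 0.684 CPM at 3 weeks, 0.397 CPM at 5 months and 1.28 CPM at 19 months.

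Of the ligands, Cx3cl1 averaged 298 CPM at 5 months and 487 CPM at 3 weeks and fell by 0.69 on the log2 scale (edgeR adjusted p = 0.00106), while its receptor Cx3cr1 did not pass the test. Csf1 and Il34 were not called between any ages, with log2 fold changes of -0.12 and -0.33 between 3 weeks and 5 months and 0.24 and 0.23 between 5 and 19 months. Syk and Sirpa were not called between any ages either. Pros1, a bridging ligand for phagocytic receptors, rose by 0.68 between 3 weeks and 5 months (edgeR adjusted p = 0.00958).

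Other features of the libraries moved with age as well. Mitochondrial rRNA took 47.0 ± 4.00% of counts at 3 weeks, 39.3 ± 4.24% at 5 months and 37.9 ± 9.58% at 19 months in SYN (SD, n = 4 each). With the mitochondrial genome removed before scaling, the counts of called genes among the 10 remained 5, 1 and 7 in the age comparisons. Oligodendrocyte markers summed to 7571 to 10751 CPM at 3 weeks, 2421 to 2996 CPM at 5 months and 2408 to 3371 CPM at 19 months, and 11 of 14 fell between 3 weeks and 5 months. Oligodendrocyte precursor markers summed to 441 to 485 CPM at 3 weeks, 199 to 215 CPM at 5 months and 194 to 232 CPM at 19 months, and 9 of 10 fell between 3 weeks and 5 months. Dendritic and synaptic RNAs summed to 20100 to 25487 CPM at 3 weeks, 26303 to 30724 CPM at 5 months and 22661 to 25968 CPM at 19 months, with 9 of 16 called higher and 1 lower between 3 weeks and 5 months. Nuclear RNAs summed to 904 to 1221 CPM at 3 weeks, 1654 to 6978 CPM at 5 months and 1727 to 2629 CPM at 19 months, and 5 of 8 rose between 3 weeks and 5 months. Their part in the age differences was not tested. Border macrophage markers summed to 22.2 to 23.9 CPM at 3 weeks, 16.5 to 25.7 CPM at 5 months and 22.8 to 29.2 CPM at 19 months. Of these, 1 of 6 tested, Stab1, was called higher between 3 weeks and 19 months (log2 fold change 0.77, edgeR adjusted p = 0.00564). Stab1 had the highest value of the 6 over that span, and their median log2 fold change was -0.21. Blood leukocyte markers stayed at or below 0.624 CPM in sum in every SYN library.

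Over all 16 libraries, the genes whose centred log2 CPM lay nearest to the mean profile of the 10 microglial genes were Gstm1, Siglech, Cst3, Rida, Mt3, Cds2, Slc6a11 and Rgs10. Their root mean square distances were 0.183 to 0.215 on the log2 scale among 9386 genes of at least 5 CPM. The 10 genes themselves lay at 0.143 (C1qa) to 0.368 (Tyrobp) from that mean, of which each is a part. Siglech and Rgs10 stand in the list of other microglial markers and the other 6 genes in none of the lists. Gstm1 has close family members, so its counts are uncertain.

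Splicing was read from the authors' deposited tables for the age comparisons, in which LeafCutter gave values for clusters of Ctss and C1qa, and DIEGO for junctions of each of the 10 genes other than P2ry12, whose splicing was not analysed here. In the authors' deposited table, LeafCutter called 6.61% of clusters for 5 months against 3 weeks, 0.768% for 19 against 5 months and 4.81% for 19 months against 3 weeks. For Ctss, the cluster joins the donor of its opening exon to acceptors that are 3 bases apart (introns chr3:95526926-95529433 and chr3:95526926-95529436). In the authors' deposited table the longer intron took 92.8% of usage at 19 months and 92.6% at 5 months (adjusted p = 0.971). Against 3 weeks, the authors' deposited table gave the same Ctss cluster an adjusted p of 0.777 at 5 months and 0.821 at 19 months. The C1qa cluster has the introns chr4:136895716-136895916 and chr4:136895716-136895918. The shorter lies outside the gene as positioned above, and the longer overlaps only the downstream end of the gene. The assignment of this cluster to C1qa is therefore uncertain. In the authors' deposited table its shorter intron took 56.9% at 19 months and 61.6% at 5 months (adjusted p = 0.691). The authors' deposited DIEGO table for 5 months against 3 weeks held 1 of 21 Csf1r junctions and 2 of 23 Cx3cr1 junctions with a q of 0.0464, in a table where 1.48% of junctions had a q below 0.05. Of those 23 junctions, 22 share no boundary with the listed exons of Cx3cr1, so their assignment to this gene is uncertain. In the authors' deposited DIEGO tables for 19 months against 5 months and against 3 weeks, no junction of these genes had a q below 0.05, in tables where 0% and 0.69% of all junctions did.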

How the data were processed

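Gene counts are the authors' deposited integer counts for 48709 genes in 16 rRNA-depleted, strand-marking libraries. Per the submitters' processing notes, bcl2fastq 2.20.0.422, cutadapt 1.18, Trimmomatic 0.38 and featureCounts of Subread were used, and GRCm38.p6 was the genome build. The sources used here do not give the aligner, the annotation release or the strandedness of counting. Without the last of these, reads of Csf1r and Hmgxb3, which overlap on opposite strands, may not be separable. LeafCutter adjusted p-values and usage fractions, and DIEGO p-values, q-values and change scores, are the authors' deposited values per the file headers.

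The fit for SYN against TH used 8 libraries, and a single fit of all 12 SYN libraries served the age comparisons. After filterByExpr and TMM scaling, genes were tested in edgeR 4.0.16 (R 4.3.3) quasi-likelihood F tests with robust dispersions, with Benjamini-Hochberg adjustment over all genes tested (17374 and 15344). Printed CPM were scaled over all 16 libraries. A standard error is the absolute log2 fold change divided by the root of F. Tests were checked on simulated data. DESeq2 1.42.0 was an alternative.

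The 10 genes and the gene lists were chosen with earlier results of these data known. From each other list, up to 4 genes with the smallest adjusted p were named (2 where none was called), with Csf1, Il34, Cx3cl1, Itgb2, Syk, C3, C4b and Sirpa always; from several lists only some of these are given. Lists of erythrocyte and oligodendrocyte precursor markers were also run: in SYN against TH, 3 of 5 erythrocyte genes were lower and 7 of 10 precursor genes higher. Gene positions came from the count table, and principal transcript lengths from GENCODE vM21. In the count table, 122 rows repeat the symbol of an earlier row.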

Additional observations from a re-analysis of the deposited data

Results flagged for a closer look

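In the group of 19 months SYN libraries, 3 of the 10 genes had a library far above the other members of its group, and it was replicate 1 each time. Itgam had 17.4 CPM in that library, against 11.2 to 11.7 CPM in the other 3. Csf1r had 61.3 CPM, against 33.9 to 38.5 CPM. Trem2 had 9.21 CPM, against 6.06 to 6.31 CPM. In each case the gap to the nearest library, divided by the range of the group, passed Dixon's critical value of 0.829. Such a check picks out about 1 in 20 groups by chance, and 40 were checked. The same library had the highest share of mitochondrial rRNA in its group, 52.3%, and the highest summed level of nuclear RNAs, 2629 CPM against 1727 to 2050 CPM. The part of these features in the high values was not tested.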

How the results depend on the processing

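All 160 alternative values for the 10 genes in SYN against TH kept their direction and their call. Upper-quartile scaling lowered the median log2 fold change of all genes there from -0.05 to -0.19 and left 37.9% of called genes higher in SYN, against 48.8% with TMM; all 10 genes stayed called higher. With DESeq2 size factors that median was -0.11.

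For 5 months against 3 weeks the count of called genes, 5, ranged from 3 to 5 when a library was left out. Leaving out a library put the log2 fold change of C1qc between -0.042 (without 5 months SYN replicate 3) and 0.25, and that of Cx3cr1 between -0.030 (without 5 months SYN replicate 2; -0.022 without 3 weeks SYN replicate 1) and 0.11. That of Csf1r turned to 0.077 without 3 weeks SYN replicate 2. These reversed values were not called. For 19 against 5 months the count, 1, was 2 with no filter on low counts, with the DESeq2 Wald test and with only the 8 libraries compared, Ctss being added each time. It was 0 with all 16 libraries in the fit and 0 to 1 when a library was left out. With 5 months SYN replicate 4 and 19 months SYN replicate 1 both left out, an analysis added after seeing the data, it was 0, and Trem2 reversed to -0.12. Over all genes, 46 were called in this comparison, 292 with no filter, 312 with the DESeq2 Wald test, 320 with only the 8 libraries, 28 with all 16 libraries and 0 to 124 when a library was left out. For 19 months against 3 weeks the count, 7, ranged from 6 to 9. The cause of these shifts was not tested.

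With a replicate block, the count was 10 for SYN against TH, 5 and 7 for the comparisons with 3 weeks, and 2 for 19 against 5 months, where Ctss was added (edgeR adjusted p = 0.0296) and 264 genes were called over all. SYN and TH columns of the count table at 5 months carry matching sample numbers, which may mark the same animals. No label states this. Same-numbered SYN and TH libraries correlated by 0.02 to 0.14 in their deviations, and differently numbered ones by -0.092 to 0.075. Counts of 25 to 101 for Trem2 per library limit its precision.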
